A study of Rattus norvegicus with 8 samples.

Results

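The genes described here are 10 genes of the unfolded protein response, measured in adult rat liver. They are 5 genes for chaperones and folding factors of the endoplasmic reticulum (Hspa5, Dnajc3, Hyou1, Sdf2l1 and Pdia4), 2 further genes of the response (Xbp1 and Herpud1), and 3 genes of its ATF4 and CHOP branch (Atf4, Ddit3 and Trib3). They were taken by symbol from the 15154 genes that had a probe matched through its RefSeq accession, and each gene was represented by its probe of highest mean raw Cy5 signal. All 10 had a probe, and in all 10 the Cy5 signal was well above background on 8 of 8 arrays, so that none was lost to the filter on dim probes.

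The 2 groups of male Sprague-Dawley rats aged 78 to 86 days are called AhR and control after the treatment of their dams. AhR offspring came from dams given non-ortho-PCBs, polychlorinated dioxins and furans in corn oil, agonists of the aryl hydrocarbon receptor (AhR), at 1.8 ng/kg/day of dioxin toxic equivalents between gestation day 0 and postnatal day 20. Control offspring came from dams given corn oil, and pups of both groups stayed with their own mothers. Each group had 4 two-colour arrays on 1 slide, and every array carried liver RNA of 2 pooled rats in Cy5 beside a universal rat reference RNA in Cy3. The labels do not tie pools to litters, so the p-values measure the spread between pools. All values below are log2 ratios of Cy5 to Cy3 or differences of such ratios, and a level of one gene's probe is not set against that of another. The study's other arrays, of 72 in all and with a 21-day age among them, were not analysed here.

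The unfolded protein response matches the folding capacity of the endoplasmic reticulum to its load of secretory proteins, which is heavy in hepatocytes. Its sensors are IRE1 (Ern1), which splices Xbp1 mRNA, ATF6 (Atf6), which is cut to release a transcription factor, and PERK (Eif2ak3), which slows translation by phosphorylating eIF2α. XBP1 and ATF6 raise chaperones and degradation factors, while PERK favours translation of ATF4, which drives genes of amino acid supply and, through CHOP, of cell death. The arrays measured total RNA, so they do not show splicing of Xbp1, cleavage of ATF6 or translation of Atf4.

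Promoter sequence was searched for exact matches to response elements of each branch. Windows from 250 bases before to 50 bases after each annotated start, from RefSeq on build GRCr8, were searched on both strands for 4 motifs, and all 10 members had a window. The ER stress response element (ERSE, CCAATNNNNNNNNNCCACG), bound by ATF6 with NF-Y, was found in the windows of Hspa5, Xbp1 and Dnajc3, against 22 of 33469 windows in the table (0.0657%). ERSE-II (ATTGG, any base, then CCACG) was found in Hyou1, at 2 places, and in Herpud1, against 0.0508% of all windows. The core of the XBP1 element (UPRE, TGACGTG, in 1.81% of windows) was found in Hspa5 and Hyou1, and in Hyou1 it overlapped an ERSE-II. Another annotated start of Hyou1 had a window with none of the 4 motifs. The C/EBP-ATF element bound by ATF4 (CARE, TGATGNAA, in 3.98% of windows) was found in Trib3 and Herpud1. Sdf2l1, Pdia4, Atf4 and Ddit3 had no exact match to these 4 motifs in the window. Elements that differ from these letters by a base were not searched for, so these genes may still carry one. The bare CCAAT box, in 37.5% of windows, was also searched for, and Sdf2l1, Pdia4 and Ddit3 were among the members with it. The 6 members with a match to the 4 motifs follow over the 250 bases before the start, for Hyou1 the start with matches. They run 5′ to 3′ on the gene's strand, in lower case with matches to the 4 motifs in capitals.
Hspa5 (chr3:38452766-38453015, plus strand): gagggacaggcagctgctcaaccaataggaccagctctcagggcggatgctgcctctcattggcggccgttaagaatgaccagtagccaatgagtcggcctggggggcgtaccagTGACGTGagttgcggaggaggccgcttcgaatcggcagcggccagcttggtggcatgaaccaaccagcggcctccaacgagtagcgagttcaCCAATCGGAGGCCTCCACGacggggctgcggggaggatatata
Xbp1 (chr14:84604373-84604622, plus strand): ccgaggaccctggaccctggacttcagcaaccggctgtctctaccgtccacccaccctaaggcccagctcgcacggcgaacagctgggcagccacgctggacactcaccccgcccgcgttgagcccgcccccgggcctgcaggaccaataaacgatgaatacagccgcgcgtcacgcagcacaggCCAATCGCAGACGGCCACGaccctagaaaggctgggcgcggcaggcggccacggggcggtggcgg
Dnajc3 (chr15:102432417-102432666, plus strand): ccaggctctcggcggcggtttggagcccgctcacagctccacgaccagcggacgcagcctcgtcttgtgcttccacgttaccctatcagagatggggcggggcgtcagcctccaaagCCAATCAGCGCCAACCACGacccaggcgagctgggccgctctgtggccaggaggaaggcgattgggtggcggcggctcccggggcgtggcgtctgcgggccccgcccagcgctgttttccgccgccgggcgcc
Hyou1 (chr8:53602632-53602881, plus strand): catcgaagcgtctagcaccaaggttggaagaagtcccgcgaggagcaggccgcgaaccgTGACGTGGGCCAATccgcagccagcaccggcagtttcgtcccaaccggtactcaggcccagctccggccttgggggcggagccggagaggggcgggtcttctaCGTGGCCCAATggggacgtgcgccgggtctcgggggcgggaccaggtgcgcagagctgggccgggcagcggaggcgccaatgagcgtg
Herpud1 (chr19:10614708-10614957, minus strand): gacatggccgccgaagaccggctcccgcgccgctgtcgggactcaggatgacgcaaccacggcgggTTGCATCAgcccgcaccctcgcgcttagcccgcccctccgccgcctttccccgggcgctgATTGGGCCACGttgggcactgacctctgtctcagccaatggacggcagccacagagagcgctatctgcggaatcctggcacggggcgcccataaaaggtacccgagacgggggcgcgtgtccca
Trib3 (chr3:161275534-161275783, minus strand): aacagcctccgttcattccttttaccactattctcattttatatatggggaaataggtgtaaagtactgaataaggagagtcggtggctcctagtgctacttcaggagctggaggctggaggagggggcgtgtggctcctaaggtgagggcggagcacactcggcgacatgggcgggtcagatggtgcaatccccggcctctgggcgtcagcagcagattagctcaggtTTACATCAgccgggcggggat
The capitals mark, in order along each sequence, UPRE and ERSE in Hspa5, ERSE in Xbp1 and Dnajc3, UPRE joined to ERSE-II and a further ERSE-II in Hyou1, CARE and ERSE-II in Herpud1, and CARE in Trib3. A match is a description of sequence, not evidence of binding.

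The tissue label was checked against marker genes. The 12 hepatocyte markers, albumin and apolipoprotein genes among them, were well above background on all arrays, and their mean log2 ratio was 0.31 ± 0.11 in AhR and 0.28 ± 0.12 in control (SD, n = 4 each). These are ratios to the RNA in Cy3, labelled as coming from 14 rat cell lines, after loess normalization within arrays. For albumin (Alb) the mean log2 ratio over all arrays was -0.06. Loess draws ratios toward 0 at each signal level, so these values do not show how much of such RNA the reference held. Of 6 markers of pancreatic acinar cells, a cell type rich in ER chaperones, Cela1, Amy2a3, Prss1 and Pnlip were well above background on 0 arrays, Cpa1 on 3 and Ctrb1 on 8. Of the plasma cell markers, Mzb1 and Tnfrsf17 were above it on 0 arrays, while Derl3, Pou2af1 and Sdc1 were on 8. Derl3 is also counted below among genes of ER-associated degradation, and these signals were not assigned to a cell type. The 8 Kupffer cell and macrophage markers had a mean log2 ratio of -0.20 to 0.25 on AhR arrays, against -0.78 to 0.14 on control arrays, and 7 of 8 had a higher mean in AhR. The 7 measured markers of stellate and endothelial cells had a mean of -0.46 to -0.18 on AhR arrays, against -0.75 to -0.42 on control arrays, and 7 of 7 had a higher mean in AhR. These counts stand beside 8513 of 17859 probes with a higher mean. Dcn, picked out after its values were seen, differed by 0.33 (SE 0.11, limma unadjusted p = 0.0125). Its AhR arrays all lay above control, as did those of 0.633% of all probes. In bulk liver RNA fewer cells of a type and less RNA per cell cannot be told apart. None of these markers passed the test, and their part in the values below was not tested. The median raw Cy5 signal per array was 159 to 232 over a background of 71 to 76.

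No difference between AhR and control livers passed the test in any of the 10 genes. All 5 chaperone genes and all 3 genes of the ATF4 and CHOP branch had a lower mean in AhR, by 0.04 to 0.24, and Xbp1 and Herpud1 had a higher one. Lower means were thus found for 8 of 10 members, beside 52.3% of the 17859 probes tested. Limma called 0 of 10 members at an adjusted p of 0.05, and 0% of all probes, with an adjusted p of 1.00 for each member. For 0 of 10 members did the 4 AhR arrays lie all below or all above the 4 control arrays, which held for 0.56% and 0.633% of all probes. At an unadjusted p under 0.05 there were 0 members and 288 probes in all. The 95% interval of the difference stayed within 2-fold in either direction for 10 of 10 members and within 1.5-fold for 7 of 10, against 98.9% and 91.8% of all probes. These intervals hold for the ratios as processed, in which an offset is added to every signal.

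Hspa5 encodes BiP, the HSP70 chaperone of the ER lumen that also holds the stress sensors inactive. Its log2 ratio was 0.46, 0.25, 0.16 and -0.17 on AhR arrays 1 to 4, against -0.17, 0.40, 0.32 and 0.46 on control arrays 1 to 4. One array of each group was low at -0.17 and one of each was high at 0.46, so the groups spanned the same range. The means were 0.18 ± 0.26 in AhR and 0.25 ± 0.29 in control (SD, n = 4 each), a difference of -0.08 (SE 0.17, 95% interval -0.44 to 0.29, exact two-sided permutation p = 0.657). Without AhR replicate 4 the difference was 0.04.

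Dnajc3 encodes p58IPK, a J-domain co-chaperone of BiP in the ER lumen. It read 0.09, 0.00, -0.10 and -0.17 on AhR arrays, against -0.05, 0.17, 0.30 and 0.14 on control arrays. Control replicate 1 was the only control array below any AhR array, and the other 3 control arrays lay above all 4 AhR arrays. Dnajc3 had the smallest unadjusted p of the 10 members: the means were -0.04 ± 0.12 in AhR and 0.14 ± 0.14 in control, and the difference was -0.19 (SE 0.10, 95% interval -0.42 to 0.04, limma unadjusted p = 0.101, adjusted p = 1.00; exact permutation p = 0.114). With 4 arrays per group, the smallest p that the permutation test can give is 0.0286.

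Hyou1 encodes GRP170, a large chaperone that acts as nucleotide exchange factor for BiP. It read 0.61, 0.04, 0.31 and 0.04 on AhR arrays, against 0.52, 0.60, 0.28 and 0.54 on control arrays. The highest single array was an AhR array, and the 2 lowest were AhR arrays. The difference was -0.24 (SE 0.14, 95% interval -0.54 to 0.07, exact permutation p = 0.257).

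Sdf2l1 encodes an ER-resident partner of the ERdj3 co-chaperone that works in the BiP cycle. Its brighter probe read 0.47, -0.09, 0.23 and -0.20 on AhR arrays, against 0.03, 0.40, 0.25 and 0.68 on control arrays. AhR replicates 2 and 4 were below all control arrays, and the others lay within the control range. The difference was -0.24 (SE 0.17, 95% interval -0.62 to 0.14, exact permutation p = 0.257), and a second Sdf2l1 probe, from 1 spot per array, gave -0.27 (SE 0.20). The brighter probe's difference came to -0.12 when control replicate 4 was left out, and to -0.36 when AhR replicate 1 was.

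Pdia4 encodes ERp72, a protein disulfide isomerase. It read -0.45, -0.15, 0.31 and -0.27 on AhR arrays, against -0.50, 0.46, -0.29 and 0.63 on control arrays. Control arrays formed a high pair and a low pair, and all AhR arrays lay between the lowest and the highest of them. The difference was -0.22 (SE 0.25, 95% interval -0.78 to 0.34, exact permutation p = 0.571). Leaving out control replicate 4 gave -0.033, and leaving out control replicate 1 gave -0.41.

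Over the 5 chaperone genes the median difference was -0.22, beside a median of -0.01 over all probes, with 5 of 5 lower means. Leaving out control replicate 4 gave -0.12, and leaving out AhR replicate 4 gave -0.14. It was -0.13 with median centring in place of loess, where the median over all probes was 0.04. Taken array by array, the mean of the 5 genes was 0.24, 0.01, 0.18 and -0.16 in AhR, against -0.03, 0.41, 0.17 and 0.49 in control. The highest 2 arrays were control and the lowest was AhR, with the rest mixed.

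**Figure D1:**
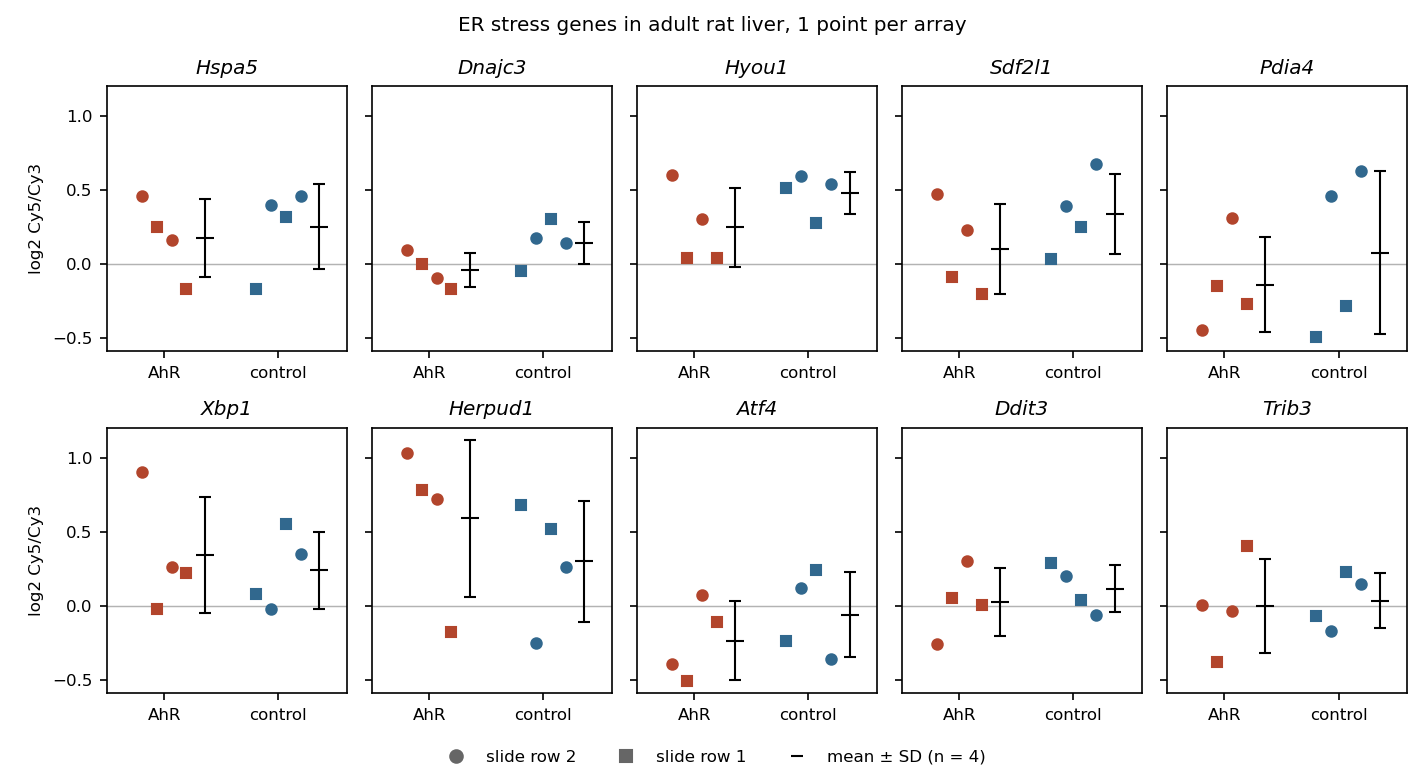
Log2 Cy5/Cy3 of each of the 10 genes on every array, AhR left of control in each panel, with circles for arrays of slide row 2, squares for slide row 1, and bars for the mean ± SD (n = 4). The groups overlap in every panel, and the spread is widest for Herpud1 and Pdia4.

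Xbp1 and Herpud1 had higher means in AhR. Xbp1 encodes the transcription factor made active by IRE1. It read 0.91, -0.02, 0.26 and 0.23 on AhR arrays, against 0.08, -0.02, 0.55 and 0.35 on control arrays. AhR replicate 1 stood highest and the other 3 AhR arrays lay within the control range. The difference was 0.10 (SE 0.19, 95% interval -0.33 to 0.53, exact permutation p = 0.714), and -0.08 without AhR replicate 1.

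Herpud1 encodes a membrane protein that organises the ubiquitin ligase complex of ER-associated degradation, and its gene responds to both branches. It read 1.04, 0.79, 0.72 and -0.18 on AhR arrays, against 0.69, -0.25, 0.52 and 0.26 on control arrays. AhR replicates 1, 2 and 3 were above all control arrays, while AhR replicate 4 was near the lowest control array. The means were 0.59 ± 0.53 in AhR and 0.30 ± 0.41 in control (SD, n = 4 each), the difference was 0.29 (SE 0.26, 95% interval -0.29 to 0.87, exact permutation p = 0.371), and it was 0.55 without AhR replicate 4 and 0.10 without control replicate 2. Arrays lay in 2 rows of the slide, with 2 of each group in each. The difference was 0.88 in row 2 and -0.30 in row 1. On the same AhR arrays the clock output gene Dbp read 1.41, 1.22, 0.08 and -2.21, against 0.32, -1.36, -1.52 and -0.42 on control arrays, so in AhR the array with the lowest Herpud1 also had the lowest Dbp. In control the lowest Herpud1 was on replicate 2 and the lowest Dbp on replicate 3, whose Herpud1 of 0.52 was the second highest. Whether Dbp bears on Herpud1 was not tested.

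The ATF4 and CHOP branch showed differences of 0.18 or less. Atf4, the transcription factor of the integrated stress response, read -0.40, -0.51, 0.07 and -0.11 on AhR arrays, against -0.24, 0.12, 0.25 and -0.36 on control arrays. Both groups held arrays near -0.4 and arrays above 0. The difference was -0.18 (SE 0.17, 95% interval -0.55 to 0.19, exact permutation p = 0.371), from 9 to 10 spots per array where the other members had 2. Leaving out control replicate 3 gave -0.076, and leaving out AhR replicate 3 gave -0.28.

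Ddit3 encodes CHOP, the factor that promotes apoptosis under lasting ER stress. It read -0.26, 0.06, 0.31 and 0.01 on AhR arrays, against 0.29, 0.20, 0.04 and -0.07 on control arrays. The highest and the lowest array were both AhR. The difference was -0.09 (SE 0.13, 95% interval -0.38 to 0.20, exact permutation p = 0.600).

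Trib3 encodes a pseudokinase induced by ATF4 and CHOP that restrains AKT. It read 0.01, -0.38, -0.04 and 0.41 on AhR arrays, against -0.07, -0.17, 0.23 and 0.15 on control arrays, at raw Cy5 signals of 324 to 466. AhR arrays spanned the whole range and enclosed the control arrays. The difference was -0.04 (SE 0.16, 95% interval -0.39 to 0.32, exact permutation p = 0.886), and it was 0.03 with median centring.

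The chaperone genes were set against the ATF4 and CHOP genes within each array, leaving out Xbp1 and Herpud1. The mean of Hspa5, Dnajc3, Hyou1, Sdf2l1 and Pdia4 less the mean of Atf4, Ddit3 and Trib3 was 0.45, 0.29, 0.07 and -0.26 on AhR arrays, against -0.03, 0.36, 0.00 and 0.58 on control arrays. Both groups held arrays near 0 and arrays above 0.4, and AhR replicate 4 was the lowest array. The score sets ratios of different probes together, so its 0 carries no meaning and only arrays are compared by it. The means were 0.14 ± 0.31 in AhR and 0.23 ± 0.29 in control (SD, n = 4 each), so the difference of -0.09 was smaller than the SD of either group. It was 0.04 without AhR replicate 4 and 0.03 without control replicate 4. The median difference was -0.22 for the chaperone genes and -0.09 for the ATF4 and CHOP genes.

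Other genes of the pathway were described from lists, none of whose members limma called in either direction, with adjusted p of 1.00 throughout. Of 18 further ER chaperones and folding enzymes measured, 13 had a lower mean in AhR and 5 a higher one, and the list's median was -0.07. Those of smallest p were Fkbp2, a prolyl isomerase, at -0.16 (SE 0.12), Erp44, a thiol-dependent retention factor, at -0.12 (SE 0.12), and P4hb, the founding protein disulfide isomerase, at 0.12 (SE 0.13). Of 21 genes of translocation and ER to Golgi transport, 15 were lower and 6 higher, with a median of -0.06. The signal peptidase gene Spcs2 differed by -0.15 (SE 0.09), and the translocon genes Sec61b and Sec61a1 by -0.20 (SE 0.17) and -0.11 (SE 0.11). These medians were smaller than the -0.22 of the chaperone members, on the same side of the -0.01 of all probes.

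Of 27 further ATF4 and CHOP targets, 16 were lower and 11 higher, with a median of -0.09. Nupr1, a stress-induced chromatin protein, read -0.54, -0.71, -0.68 and -1.04 on AhR arrays, against -0.40, -0.54, -0.25 and -0.39 on control arrays. AhR replicate 1 and control replicate 2 were level at -0.54 and kept the groups from separating. The difference was -0.35 (SE 0.12, limma unadjusted p = 0.0149, adjusted p = 1.00; exact permutation p = 0.0571). Nars1, the asparaginyl-tRNA synthetase, differed by -0.19 (SE 0.10), and Fgf21, a fasting and stress hormone made by the liver, by 0.35 (SE 0.26). Psph, the last enzyme of serine synthesis, was the 1 gene of this list whose AhR arrays all lay below control. Among all probes this held for 0.56%. Psph differed by -0.07 (SE 0.08), with an SD of 0.02 in AhR and 0.01 in control. Its limma unadjusted p was 0.420, and its exact permutation p was 0.0286, the smallest that test can give. Psph was picked out after its values were seen.

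The lists of sensing and degradation genes had medians above 0. Of 11 sensors and regulators of eIF2α phosphorylation, 7 were higher and 4 lower, with a median of 0.05. Atf6 differed by -0.17 (SE 0.22), Ern1 by -0.04 (SE 0.09), Eif2ak3 by 0.05 (SE 0.09) and Creb3l3, a liver-enriched ER-bound transcription factor, by 0.11 (SE 0.14). Of 15 genes of ER-associated degradation, 11 were higher and 4 lower, with a median of 0.05. Ube2g2, a ubiquitin-conjugating enzyme, differed by 0.11 (SE 0.13), Nploc4, a cofactor of the p97 ATPase, by 0.08 (SE 0.10), and the lectin gene Os9 by -0.07 (SE 0.09). The list of cytosolic heat shock genes, a class controlled by HSF1 and not by the ER sensors, had 6 higher and 5 lower of 11. Its median was 0.04. Hspa8 differed by 0.21 (SE 0.21), Hspd1, in fact a mitochondrial chaperonin, by 0.09 (SE 0.10), and Hsp90aa1 by -0.17 (SE 0.15). The list also counted Hsf1 itself and Hspe1, likewise mitochondrial.

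**Figure D2:**
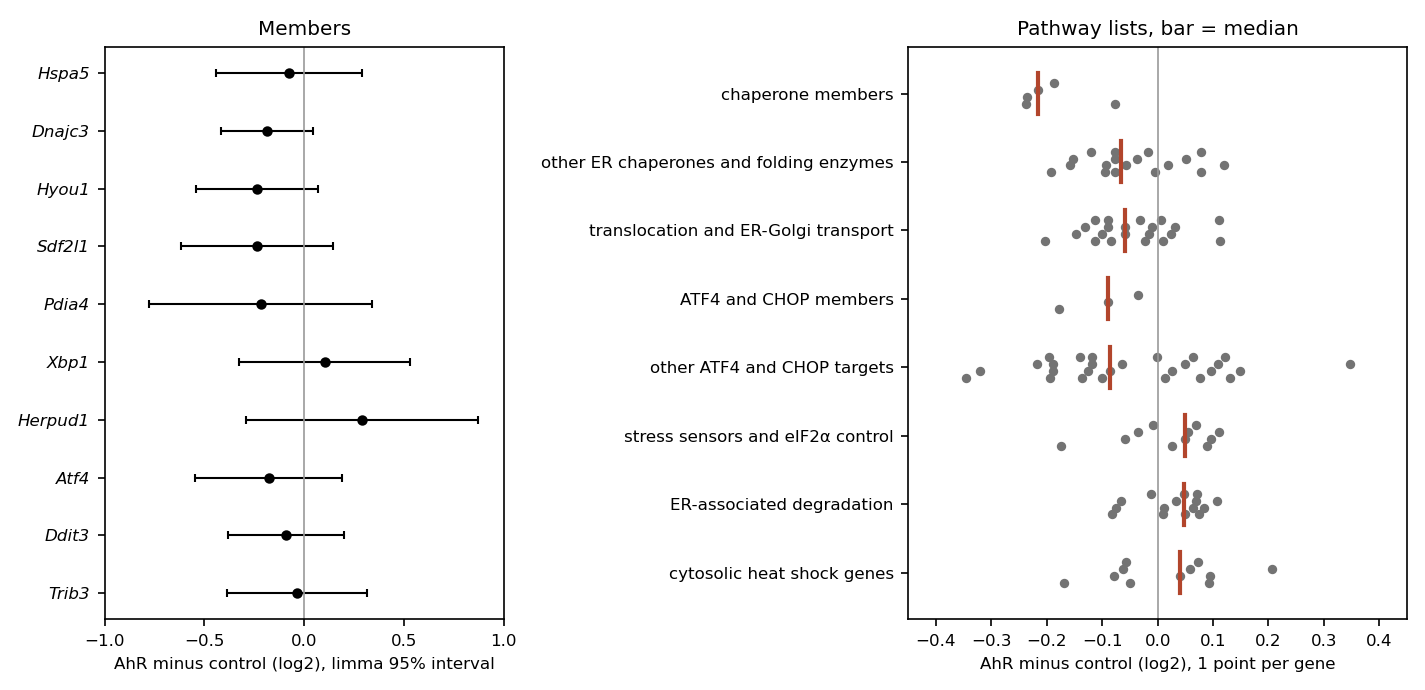
Left, AhR minus control (log2) of each member with its 95% interval from limma. Right, the same difference for each measured gene of 8 lists, with the list median as a bar. All 10 intervals cross 0, and the list medians lie between -0.22 and 0.05.

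Of the 10 members, 9 varied more between pools of the same group than the median gene. The SD within groups was 0.47 for Herpud1, 0.45 for Pdia4 and 0.33 for Xbp1, against a median of 0.17 over 10004 named genes, which placed these 3 at the 97.8th, 97.5th and 92.5th percentile. Sdf2l1, Atf4, Hspa5 and Trib3 had SDs of 0.29, 0.28, 0.27 and 0.26, Hyou1 and Ddit3 of 0.22 and 0.20, and Dnajc3 of 0.13, which lay below the median gene. Duplicate spots of a member on one array differed far less, with a median SD of 0.03 to 0.07. Duplicate spots leave out the error of labelling, hybridisation and array position, which was not measured apart from the pools.

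Relations between the members were computed over the 8 arrays, whose ratios share the array and its Cy3 signal. The 10 pairs of chaperone genes all had positive Pearson's r, from 0.19 to 0.81 with a median of 0.52, beside 50.3% of positive values over all pairs of 10004 genes. Within groups, 6 of the 10 were positive over the 4 AhR arrays and 9 of 10 over the 4 control arrays. All 4 pairs of Pdia4 with another chaperone gene were negative in AhR, from -0.44 to -0.05, and positive in control, from 0.25 to 0.93, and Dnajc3 with Hyou1 was at 0.68 in AhR and -0.59 in control. The 15 pairs of a chaperone with an ATF4 or CHOP gene ran from -0.49 to 0.29 with a median of -0.06, and 6 were positive. Hspa5 and Sdf2l1 were closest, with r = 0.81 (exact permutation p = 0.0150, adjusted p = 0.465 over 45 pairs) and Spearman's rho = 0.86 (exact permutation p = 0.0107, adjusted p = 0.346). Their r was 0.77 without the 2 arrays farthest from the median of Hspa5, and 0.81 within AhR and 0.87 within control arrays. Hyou1 and Sdf2l1 had r = 0.80 (exact permutation p = 0.0216, adjusted p = 0.465) and rho = 0.83 (exact permutation p = 0.0154, adjusted p = 0.346). Their r was only 0.44 without the 2 arrays farthest from the median of Hyou1, and 0.98 within AhR and 0.31 within control arrays. Hspa5 and Dnajc3 had r = 0.74 (exact permutation p = 0.0363, adjusted p = 0.465), rho = 0.69 (exact permutation p = 0.0694, adjusted p = 0.618) and r = 0.57 without the 2 farthest arrays. Xbp1 and Ddit3 ran against each other, with r = -0.72 (exact permutation p = 0.0414, adjusted p = 0.465), rho = -0.60 (exact permutation p = 0.132, adjusted p = 0.661) and r = -0.32 without the 2 farthest arrays. None of the 45 pairs passed after adjustment. After each slide row's mean was subtracted, a step added after the data were seen, 9 of the 10 chaperone pairs were positive, from -0.34 to 0.83 with a median of 0.26. On that scale r was 0.64 for Hspa5 with Sdf2l1, 0.59 for Hyou1 with Sdf2l1, 0.83 for Hspa5 with Dnajc3 and -0.72 for Xbp1 with Ddit3.

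**Figure D3:**
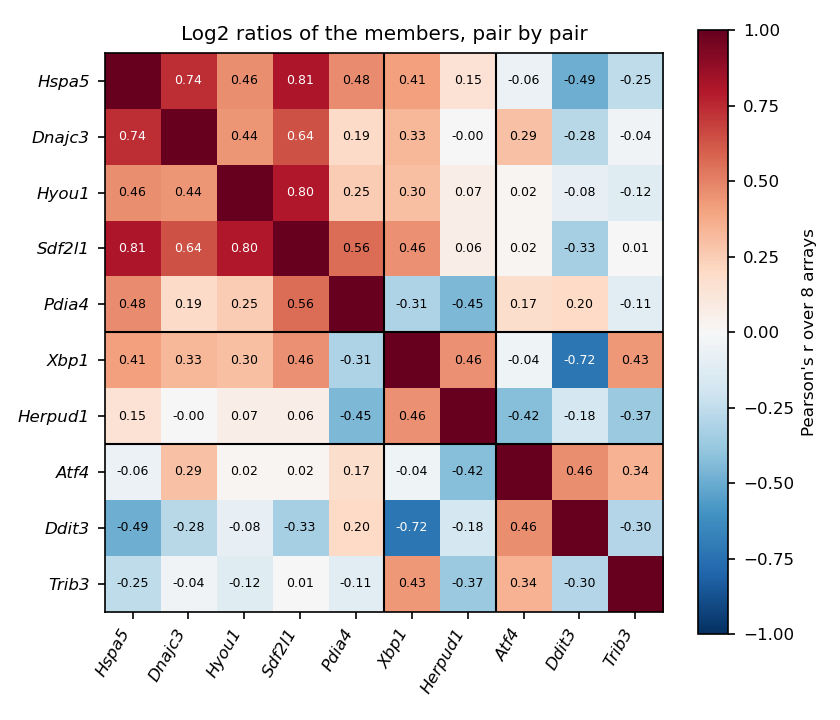
Pearson's r between the log2 ratios of each pair of the 10 genes over 8 arrays, with lines between the chaperone genes, Xbp1 and Herpud1, and the ATF4 and CHOP genes. The block of 5 chaperone genes holds positive values throughout, from 0.19 to 0.81, and Xbp1 with Ddit3 is lowest at -0.72.

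The named genes closest to Hspa5 over the 8 arrays, after each group's mean was subtracted, were Tpgs2 (r = 0.97), Abt1 (r = 0.97), Mapre2 (r = 0.96), Wnt4 (r = 0.95) and Smndc1 (r = 0.94) among 10004. Those closest to Trib3 were Sfrp5 (r = 0.98), Cdk16 (r = 0.98), Cdc42bpa (r = 0.97), Nob1 (r = 0.97) and Thsd7a (r = 0.96). None of these was a member, and as the highest of 10004 values over 8 arrays they are given as a description.

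The arrays were also compared by their position on the slide, a split chosen after the values had been seen, and no member passed that test. The position numbers in the names of the scans were read as 2 rows of the slide. Each row held 2 AhR and 2 control arrays. The mean of the 5 chaperone genes was 0.18 to 0.49 on the 4 arrays of row 2, against -0.16 to 0.17 on the 4 arrays of row 1, and the rows did not overlap, though the nearest arrays stood at 0.18 and 0.17. The rows overlapped with median centring and with Cy5 alone. With treatment in the model, 5 of 5 chaperone genes were higher in row 2, beside 49.8% of all probes, with a median of 0.31 against 0.00 over all probes. Sdf2l1 had a mean of 0.44 in row 2 and 0.00 in row 1, a difference of 0.45 (SE 0.11, limma unadjusted p = 0.00252, adjusted p = 0.993). Its exact permutation p, from a test that took no account of treatment, was 0.0571. Pdia4 differed by 0.54 (SE 0.20), Hspa5 by 0.31 (SE 0.14), Hyou1 by 0.30 (SE 0.11) and Dnajc3 by 0.06 (SE 0.11). For the 3 ATF4 and CHOP genes the median was -0.05, and the mean of the 3 was -0.22 to 0.11 in row 2, against -0.28 to 0.17 in row 1. Limma called 0% of all probes for the row and 0 members, and single members separated the rows in 0 of 10 cases, beside 0.98% of probes that were higher on all 4 arrays of row 2. Of the 18 other ER chaperones and folding enzymes, 14 were higher in row 2, with a median of 0.13. Kupffer cell and macrophage markers had 7 of 8 higher and a median of 0.35, stellate and endothelial markers 6 of 7 and 0.15, hepatocyte markers 8 of 12 and 0.14, and cytosolic heat shock genes 9 of 11 and 0.10. Limma called none of these genes for the row, and their part was not tested.

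Within rows, the chaperone mean of row 2 was 0.24 and 0.18 on AhR arrays, against 0.41 and 0.49 on control arrays. In row 1 it was 0.01 and -0.16 on AhR arrays, against -0.03 and 0.17 on control arrays. The median difference of the 5 genes was -0.16 within row 2 and -0.21 within row 1. As the rows were balanced between the groups, the row as a block could not change an estimate. With it, adjusted p was 1.00 for each member.

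**Figure D4:**
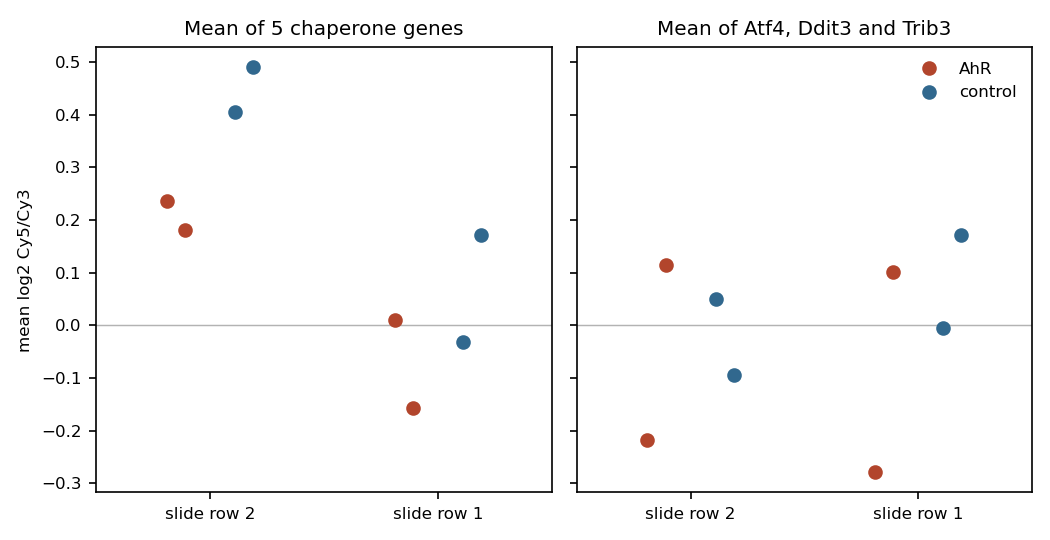
Mean log2 Cy5/Cy3 of the 5 chaperone genes (left) and of Atf4, Ddit3 and Trib3 (right) on each array, by slide row, with AhR arrays left of control arrays. Chaperone means in row 2 lie between 0.18 and 0.49 and in row 1 between -0.16 and 0.17, while the ATF4 and CHOP means of the rows overlap.

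Against the RNA in Cy3, which was the same on all arrays per the labels, the members lay close to equal signal after loess. Over both groups Cy5 exceeded Cy3 by 1.36-fold for Herpud1, 1.29-fold for Hyou1 and 1.23-fold for Xbp1, and the lowest ratios were 0.903 for Atf4 and 0.978 for Pdia4. No dyes were swapped, so these folds are open to dye bias. Loess also draws ratios toward equal signal, so the folds do not give relative RNA amounts.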

How the data were processed

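Liver RNA was hybridised in Cy5 against a reference RNA in Cy3, with 200 ng labelled, per the labels' protocols. The deposited intensity values are median pixel signals per spot; per the file headers, the scans were read with Feature Extraction 10.7.3.1. A second deposited set of values, log2 ratios whose making is not stated, tracked Cy5 over Cy3 computed here by loess with no background taken off (r of 0.990 to 0.994, slope 0.978 to 0.988, column medians 0.0057 to 0.0165), and its exact dye correction stays unknown.

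Median signals were corrected by normexp (offset 50) and normalized by loess within arrays in limma 3.58.1 (R 4.3.3), giving weight 0 to the 4259 controls and to spots marked as outliers. Spots of a probe were averaged. Probes with Cy5 well above background on at least 4 of 8 arrays were kept, 17859 of 30367. RefSeq accessions without versions named 11656 of these (10004 genes), through the gene table of GRCr8; the array was designed on rn4. No member spot was saturated in Cy5, and precision is limited by how many arrays there are.

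Groups were compared by limma (lmFit and eBayes, Benjamini-Hochberg over all kept probes), with exact two-sided permutation tests for single genes. Named genes were the members, the 3 genes of smallest p in each pathway list, Ern1, Eif2ak3 and Atf6, and the 5 genes closest to Hspa5 and to Trib3. Members and lists were chosen with earlier results of these data known. Same-numbered arrays of the groups had correlations of deviations from -0.37 to 0.05. They were treated as unpaired, though such correlations cannot show whether the numbers mark a pairing. No arrays were duplicates, the closest pair differing by an SD of 0.25 (log2) across probes. Alternatives are listed with their effect at the end.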

Additional observations from a re-analysis of the deposited data

How the results depend on the processing

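Limma called 0 probes and 0 members under each of 22 other settings. These were 14 of background correction, normalization, channel, filter, probe choice, block, row, variance model and value table, and 8 that left out 1 array. At an unadjusted p under 0.05 the main processing gave 288 probes. That count was 194 to 817 with 1 array left out, the highest without control replicate 4 and the next, 505, without AhR replicate 4. It was 172 with median centring. The chaperone median was -0.22 to -0.13 in the settings that used all 8 arrays and -0.27 to -0.12 with 1 array left out. The ATF4 and CHOP median was -0.09 to -0.0082 and -0.18 to -0.04.

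Some members changed direction, none of them past the threshold. With 1 array left out, the difference was -0.22 to 0.038 for Hspa5, -0.084 to 0.22 for Xbp1, -0.18 to 0.0054 for Ddit3 and -0.17 to 0.091 for Trib3. Trib3 was at 0.030 with median centring. Within slide row 1, Pdia4 was at 0.18, Xbp1 at -0.21 and Herpud1 at -0.30. The cause was not tested. Settings of block, filter or variance model cannot change the difference of a member, so they do not test its direction. Dnajc3, Hyou1, Sdf2l1 and Atf4 kept a lower mean in AhR under all 22. With 1 array left out they lay at -0.25 to -0.13, -0.36 to -0.17, -0.36 to -0.12 and -0.28 to -0.076. Pdia4 lay at -0.41 to -0.033 and Herpud1 at 0.10 to 0.55. The replicate block changed no call. As it was balanced between the groups, it could not change the chaperone median of -0.22.

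The row difference of the chaperone genes, a median of 0.31, was 0.26 to 0.41 under 14 settings. All row 2 means lay above all row 1 means in 12 of them, with median centring and Cy5 alone as the exceptions. All 10 members had Cy5 well above background on all arrays.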
